A study of Mus musculus with 16 samples.

Results

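The genes described here are 39 listed macrophage and myeloid genes, out of 12393 genes with a single symbol on the array. They were listed because their signal was low in tumour cell cultures carrying any of 3 expression vectors and high in cultures carrying none, so the differences between vector and control arrays chose them and are given below as a description, with no test. Where a gene had several probe sets, the one brightest on average across the 16 arrays was read. The cultures were 2 mouse small cell lung cancer lines, each grown from a dissociated lung tumour (3583T3 and 3151T4). Every line was studied in 4 states with 2 arrays each: stably expressing FLAG-tagged mouse Nfib from a retroviral vector under G418 selection, stably expressing Mycl1 (L-myc) from a second vector under puromycin selection, expressing both, or with no transfection (control). Control cells carried neither vector nor, as far as the labels say, a selection drug, so the inserted genes, the vector and the selection cannot be told apart in any comparison with them. The tumours' genotype is not given in the sources used here, and no empty-vector culture was analysed here. Nothing in the labels says that the 2 arrays of a state came from separate cultures, and a p-value here reflects no more than how these arrays scatter, which may be technical scatter. The small number of arrays limits the precision.

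Macrophages are phagocytes of the innate immune system that live in the lung and accumulate in tumours. They depend on the growth factor CSF1, whose receptor Csf1r is under control of the transcription factor PU.1, encoded by Spi1, and they engulf and degrade debris with Fc and scavenger receptors and lysosomal enzymes. A cell line grown directly from a minced tumour can hold such cells beside the tumour cells. In RNA from a whole culture, fewer macrophages and less macrophage RNA per cell cannot be told apart.

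All values are log2 signals. A signal under log2 3 is called the floor, because GCRMA-normalised values of genes with no detectable RNA gather there, and a difference that ends at the floor is set in size by it. The 16 arrays had median signals of 6.26 to 6.43. A Mycl probe set read 9.08 to 11.05 on 7 of the 8 arrays labelled as carrying Mycl1 and 2.12 to 2.55 on 7 of the 8 labelled as lacking it. The array labelled 3583T3 Nfib replicate 2 read 10.22, and the array labelled 3583T3 Nfib+Mycl1 replicate 2 read 2.67, so these 2 labels go against the measured gene. Counts of called genes are given with and without them, and other values in 3583T3 Nfib and Nfib+Mycl1 cells include them unless stated. The brightest Nfib probe set read 9.82 to 10.45 on the 8 arrays labelled as carrying Nfib and 10.31 to 10.76 on the others, so it did not mark the Nfib vector. A Mycn probe set read 12.19 to 13.26 on all 12 vector arrays, also with Nfib alone, and 2.03 to 2.56 on the 4 control arrays. The source of this signal was not tested. The other Mycl and Mycn probe sets overlapped between these groups of arrays. Of the markers of small cell lung cancer, Ncam1 averaged 11.70 to 12.33 and Uchl1 8.70 to 11.20 over the 8 groups, while Chga, Chgb and Syt1 averaged under the floor in every group.

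The name of the list was checked against the control arrays. Csf1r, Cd68, Fcer1g, Tyrobp, Lyz2 and C1qb were all above log2 4 on the 4 control arrays. Adgre1 (the F4/80 antigen), Itgam (CD11b) and Spi1, which also define macrophages, were below log2 4 on all 16 arrays, so the list rests on the other genes. Of the 39 members, 34 exceeded log2 4 on at least 2 arrays and entered the tests. Adgre1, Itgam, Spi1, Trem2 and Cybb did not. Of the 34, 23 exceeded log2 4 on 2 arrays only because of control arrays.

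Several of these genes sit next to each other in the genome. In the RefSeq annotation no protein-coding gene lies between Lyz2 and Lyz1, between Ccl9 and Ccl6, between F13a1 and Ly86, or between C1qb, C1qc and C1qa, and 1 lies between Fcgr2b and Fcgr3. Lyz1 and Lyz2 are alike in sequence, also in their last 100 bases before the transcription start, where 92 of 100 positions are identical (RefSeq, GRCm38.p6, minus strand, chr10:117292869-117292968 and chr10:117282273-117282372). They are printed to show how alike the neighbours are, and capitals mark the 8 positions that differ.
Lyz1: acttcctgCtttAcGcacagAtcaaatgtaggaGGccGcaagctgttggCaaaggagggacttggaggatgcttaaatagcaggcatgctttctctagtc
Lyz2: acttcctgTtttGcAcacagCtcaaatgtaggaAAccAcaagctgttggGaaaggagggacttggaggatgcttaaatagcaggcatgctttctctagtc
These bases lie outside the transcript, and the transcripts and probes were not compared here. The probe sets read for Lyz1, C1qb, Laptm5 and Fcgr2b are of a type whose probes can also bind related transcripts, so the values of these 4 genes are uncertain. The C1qb probe set that is not of this type averaged 1.82, 1.87 and 1.89 in Nfib, Mycl1 and Nfib+Mycl1 cells of 3583T3, against 6.70 in control cells, and 1.87, 1.96 and 1.71 in 3151T4, against 4.37. It gave the same order of vector and control cells at a lower signal.

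Promoters of 28 members were found in the RefSeq table, with 35 start sites in all, each as 250 bases before and 50 after the start. The motif GAGGAA, the core of sites for PU.1, was searched on both strands and lay in 18 of the 35 windows (51.4%), compared with 28.3% of all 32851 windows. The longer GAGGAAGT, which contains GAGGAA, lay in 6 (17.1%), compared with 3.2%. TTNCNNAA, a loose form of the C/EBP site, lay in 19 (54.3%), compared with 40.7%. A match is a description of the letters only. The last 100 bases before the start are printed for 3 members at or near the floor with every vector (C1qb, Laptm5 and Mmp12) and for Cd53, which did not in 3151T4 Nfib cells. Capitals mark GAGGAA or its reverse complement. The windows are chr4:136886201-136886300 (minus strand) for C1qb, chr4:130913216-130913315 (plus strand) for Laptm5, chr9:7344297-7344396 (plus strand) for Mmp12 and chr3:106790150-106790249 (minus strand) for Cd53, all in GRCm38.p6.
C1qb: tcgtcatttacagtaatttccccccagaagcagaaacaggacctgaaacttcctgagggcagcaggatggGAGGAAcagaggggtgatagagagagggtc
Laptm5: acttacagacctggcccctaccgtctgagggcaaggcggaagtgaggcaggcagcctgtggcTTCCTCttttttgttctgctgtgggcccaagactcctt
Mmp12: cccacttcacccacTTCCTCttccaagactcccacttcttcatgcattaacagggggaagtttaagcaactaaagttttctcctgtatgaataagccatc
Cd53: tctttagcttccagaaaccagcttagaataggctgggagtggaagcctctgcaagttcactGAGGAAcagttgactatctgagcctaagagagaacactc
Each of these 4 printed stretches holds the motif, which other members lack. It lay in no window of Ccl9 or Coro1a, which averaged 8.26 and 5.53 in 3151T4 Nfib cells. Nor did it lie in that of Mpeg1, which averaged 2.04 there. A link between the motif and the signal left was not tested.

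Over the whole list, the median member read 2.45 in Nfib, 2.56 in Mycl1 and 2.44 in Nfib+Mycl1 cells of 3583T3, against 7.64 in its control cells. In 3151T4 the median member read 2.60, 2.79 and 2.63 with the same vectors, against 5.35 in control cells. The median share of the control signal left was 3.06% with Nfib, 3.33% with Mycl1 and 3.34% with both in 3583T3, and 25.3%, 26.9% and 25.0% in 3151T4. Vector cells of both lines thus read about the same median signal, and control cells of 3151T4 read lower than those of 3583T3. All 6 vector arrays lay below both control arrays in each line for 33 of the 39 members, a pattern found in 2.73% of all genes. Within 3583T3 this held for 38 members (8.12% of all genes) and within 3151T4 for 34 (8.50%). The 6 members that missed it in one line or the other were Cd53, Cd14, Itgam, Ly86, Spi1 and F13a1. Taken 1 vector at a time, both arrays lay below both control arrays for 38 members with Nfib (25.2% of all genes), 38 with Mycl1 (20.2%) and 38 with both (24.4%) in 3583T3. In 3151T4 they did for 36 members with Nfib (26.4%), 39 with Mycl1 (27.1%) and 36 with both (29.7%). When those 2 doubted arrays were left out, the median member of 3583T3 read 2.45 with Nfib and 2.49 with both, with 3.13% and 3.72% of the control signal left, and 33 members were again below control in each line (3.09% of all genes).

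**Figure D1:**
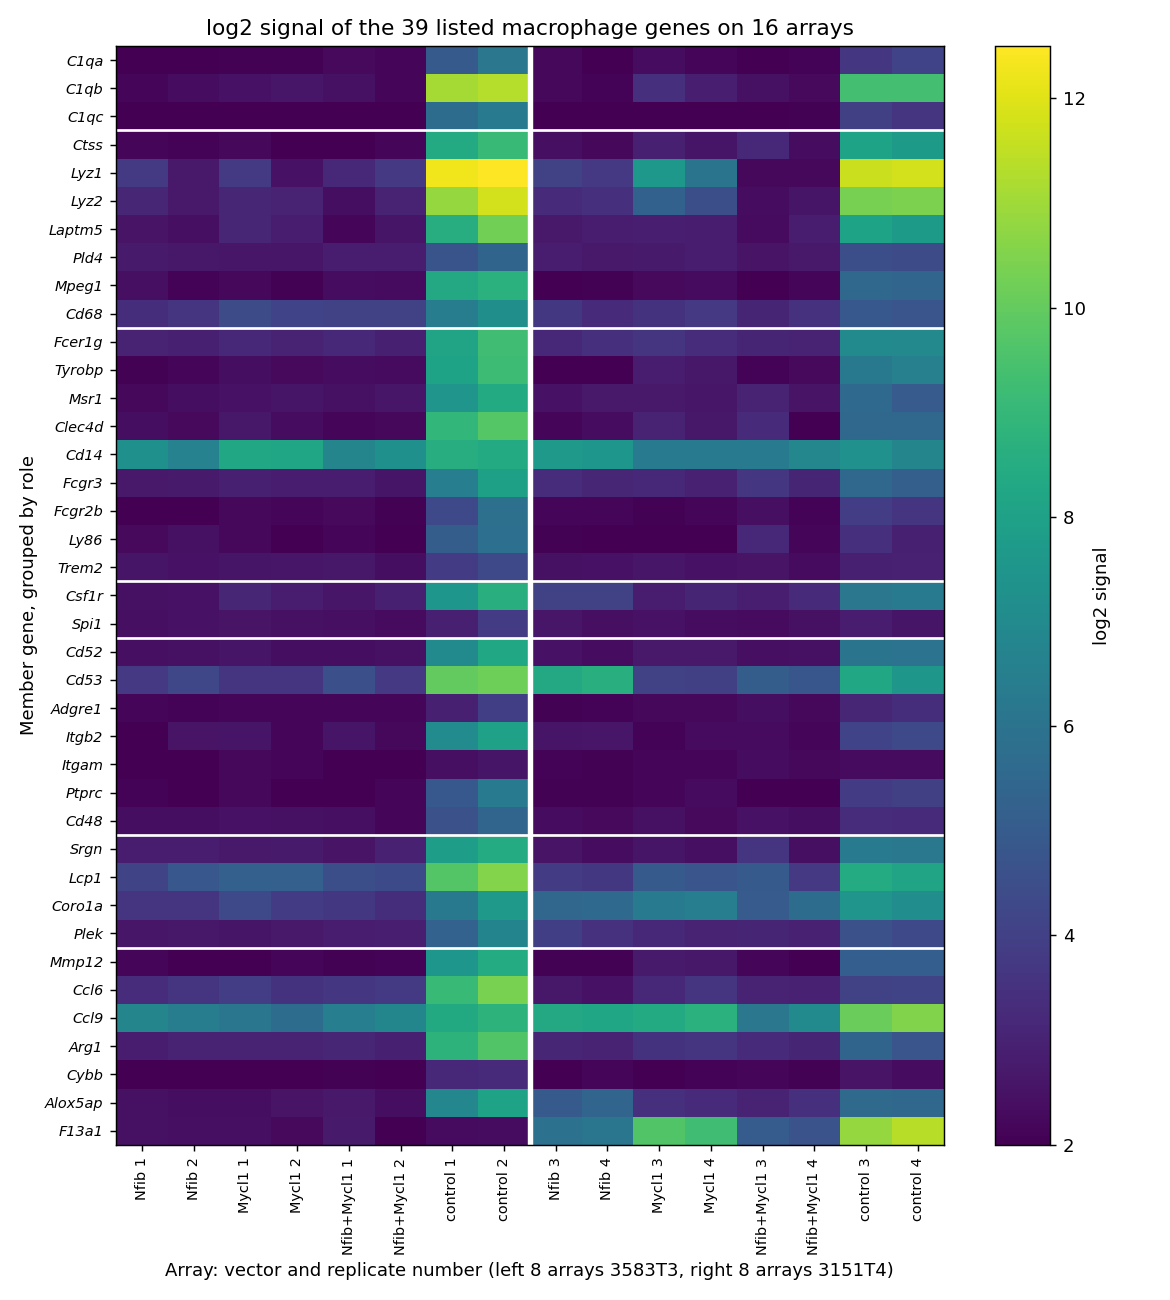
log2 signal (colour) of the 39 genes, in rows by role, on the 16 arrays, in columns; the left 8 arrays are 3583T3 and the right 8 are 3151T4, each with vector arrays left of the 2 control arrays. Most rows are bright on the control arrays alone, with Cd14 and Ccl9 bright throughout, Cd53 bright in 3151T4 Nfib cells and F13a1 dark in all of 3583T3.

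The 3 chains of complement C1q, the recognition protein of the classical complement pathway that tissue macrophages make, lay at or near the floor in all vector cells. C1qb read 2.14 and 2.35 in Nfib, 2.52 and 2.62 in Mycl1 and 2.48 and 2.15 in Nfib+Mycl1 cells of 3583T3, against 11.08 and 11.35 in its control cells. In 3151T4, C1qb read 2.21 and 2.09 with Nfib, 3.42 and 2.88 with Mycl1 and 2.47 and 2.26 with both, against 9.35 on each control array. No vector array overlapped with a control array, and C1qb in 3151T4 Mycl1 cells was the one reading of the 3 chains over the floor. C1qa stayed between 1.90 and 2.35 on the 12 vector arrays, against 4.98 and 6.18 in 3583T3 control cells and 3.64 and 4.10 in 3151T4 control cells. C1qc stayed between 1.71 and 2.08, against 5.70 and 6.38 and against 3.98 and 3.57 in the same control cells.

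Both lysozymes, enzymes that cut bacterial cell walls, were among the genes with the smallest share left. Lyz1 read 3.78 and 2.73 in Nfib, 3.80 and 2.52 in Mycl1 and 3.17 and 3.74 in Nfib+Mycl1 cells of 3583T3, against 12.27 and 12.62 in control cells. In 3151T4 it read 4.08 and 3.72 with Nfib, 7.62 and 6.05 with Mycl1 and 2.24 and 2.22 with both, against 11.65 and 11.80 in control cells. Mycl1 cells of 3151T4 thus kept a measurable signal, 3.37% of control, above that of the other vector cells. Lyz2 had the same order in 3151T4, with 3.30 and 3.46 in Nfib, 5.28 and 4.51 in Mycl1 and 2.35 and 2.58 in Nfib+Mycl1 cells, against 10.36 and 10.43 in control cells. In 3583T3, Lyz2 read 2.41 to 3.15 on the 6 vector arrays, against 10.85 and 11.78 in control cells. For Lyz1, a second probe set gave the same pattern, with group means of 2.79, 2.81 and 2.90 in Nfib, Mycl1 and Nfib+Mycl1 cells of 3583T3, against 11.59 in control cells. It is of the same type as the first, whose probes can also bind related transcripts. The last of its 3, not of this type, averaged 2.27 to 2.55 in all groups, control cells included. The Lyz1 values may therefore be signal of Lyz2, which was not tested.

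The other endolysosomal genes lay at the floor or near it in vector cells. Ctss, a protease that trims the class II invariant chain, read 1.89 to 3.18 on the 12 vector arrays, against 8.42 and 9.09 in 3583T3 and 8.09 and 7.71 in 3151T4 control cells. Laptm5, a lysosomal membrane protein of blood cells, read 2.12 to 3.13, against 8.54 and 10.28 and against 8.11 and 7.72 in the same cells. Mpeg1, a pore-forming protein of phagosomes, read 1.97 to 2.44, against 8.33 and 8.69 and against 5.57 and 5.41. Pld4, an endolysosomal nuclease, kept to 2.54 to 2.82, against 4.73 and 5.39 and against 4.53 and 4.45. Cd68, a lysosomal glycoprotein used to stain macrophages, stayed above the floor, with 3.39 and 3.59 in Nfib, 4.44 and 4.12 in Mycl1 and 4.08 and 4.02 in Nfib+Mycl1 cells of 3583T3, against 6.41 and 7.25 in control cells. In 3151T4 Cd68 read 3.09 to 3.74 on the vector arrays, against 4.89 and 4.78 in control cells.

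Of the 9 surface receptors and adaptors, 7 ended near the floor, Trem2 was low throughout and Cd14 was not lower with every vector. Fcer1g, the signalling chain shared by Fc receptors, read 2.92 to 3.63 on the 12 vector arrays, against 8.11 and 9.30 in 3583T3 and 7.01 and 6.93 in 3151T4 control cells. Tyrobp (DAP12), the adaptor of Trem2 and related receptors, read 1.89 to 2.82, against 8.09 and 9.18 and against 6.25 and 6.57. Both adaptors separated vector from control arrays without overlap in each line. Clec4d, a lectin receptor for mycobacterial glycolipid, read 2.03 to 3.30, against 8.96 and 9.75 and against 5.56 and 5.55. Msr1, a scavenger receptor, read 2.21 to 2.99, against 7.46 and 8.41 and against 5.58 and 5.02, and Fcgr3, an activating IgG receptor, 2.61 to 3.67, against 6.50 and 7.98 and against 5.50 and 5.19. The inhibitory IgG receptor Fcgr2b, at 1.86 to 2.42 with vectors, read 4.31 and 5.87 in 3583T3 and 3.91 and 3.60 in 3151T4 control cells. Ly86 (MD-1), which pairs with CD180, read 1.69 to 3.15 with vectors, against 5.11 and 5.85 and against 3.40 and 2.92, and its Nfib+Mycl1 and control arrays overlapped in 3151T4. Trem2, a lipid-sensing receptor, read 2.32 to 2.69 with vectors and reached only 3.80 and 4.34 in 3583T3 and 2.92 and 2.97 in 3151T4 control cells.

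Cd14, the lipopolysaccharide co-receptor, was the receptor that stayed high. It read 7.27 and 6.65 in Nfib, 8.29 and 8.23 in Mycl1 and 6.76 and 7.26 in Nfib+Mycl1 cells of 3583T3, against 8.52 and 8.40 in control cells. In 3151T4 it read 7.66 and 7.52 with Nfib, 6.29 and 6.37 with Mycl1 and 6.35 and 6.85 with both, against 7.32 and 6.76 in control cells. Nfib arrays of 3151T4 lay above both control arrays, and the Nfib+Mycl1 arrays overlapped with them.

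Csf1r, the receptor that macrophages need to survive, read 2.47 and 2.51 in Nfib, 3.13 and 2.82 in Mycl1 and 2.63 and 2.93 in Nfib+Mycl1 cells of 3583T3, against 7.50 and 8.60 in control cells. In 3151T4 it read 4.03 and 4.01 with Nfib, 2.80 and 3.09 with Mycl1 and 2.90 and 3.23 with both, against 6.16 and 6.31 in control cells. The signal left was 21.6% of control in 3151T4 Nfib cells and 2.12% in 3583T3 Nfib cells. Spi1, which encodes PU.1, read 2.31 to 2.65 on the vector arrays, against 2.91 and 3.87 in 3583T3 and 2.84 and 2.60 in 3151T4 control cells, too low to follow. Csf1, the gene of the Csf1r ligand and no member, averaged between 10.13 and 11.57 in all 8 groups.

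Among the adhesion and leukocyte surface proteins, Cd53, a tetraspanin of leukocytes, behaved differently in the 2 lines. It read 3.74 and 4.22 in Nfib, 3.60 and 3.56 in Mycl1 and 4.58 and 3.73 in Nfib+Mycl1 cells of 3583T3, against 9.97 and 10.18 in control cells. In 3151T4 it read 8.36 and 8.57 with Nfib, 4.03 and 4.00 with Mycl1 and 5.10 and 4.80 with both, against 8.28 and 7.57 in control cells. Nfib cells of 3151T4 therefore kept the full control signal, and both of their arrays lay above both control arrays. The invariant chain gene Cd74, which is no member, ranked the vectors in the same order in 3151T4. Its means were 8.57 with Nfib, 5.46 with Mycl1 and 6.15 with both. Unlike that of Cd53, its Nfib mean lay below that of control cells, 8.95.

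The remaining surface genes lay at the floor in all vector cells. Cd52, a short GPI-anchored protein, read 2.34 to 2.73 with vectors, against 7.04 and 8.24 in 3583T3 and 6.05 and 5.99 in 3151T4 control cells. Itgb2 (CD18), the shared chain of leukocyte integrins, read 1.98 to 2.62, against 7.05 and 8.01 and against 4.13 and 4.30, while its partner Itgam stayed under the floor on all 16 arrays. Ptprc (CD45), the phosphatase found on all leukocytes, read 1.77 to 2.30, against 4.88 and 6.38 and against 3.81 and 4.00. Cd48, an adhesion protein of leukocytes, read 2.13 to 2.52, against 4.62 and 5.44 and against 3.32 and 3.23. Adgre1 reached 2.91 and 3.93 in 3583T3 and 3.11 and 3.39 in 3151T4 control cells, and 2.07 to 2.37 on the vector arrays.

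The cytoskeletal and granule genes were mixed, with Lcp1 and Coro1a above the floor in vector cells and Srgn near it. Lcp1 (L-plastin), an actin-bundling protein of leukocytes, read 4.14 and 4.84 in Nfib, 5.22 and 5.21 in Mycl1 and 4.51 and 4.38 in Nfib+Mycl1 cells of 3583T3, against 9.71 and 10.53 in control cells. In 3151T4 Lcp1 read 3.82 and 3.71, 4.96 and 4.77, and 4.98 and 3.74 with the same vectors, against 8.48 and 8.12 in control cells. Coro1a, an actin regulator of leukocytes, read 3.58 and 3.62 in Nfib, 4.31 and 3.87 in Mycl1 and 3.71 and 3.36 in Nfib+Mycl1 cells of 3583T3, against 6.23 and 7.65 in control cells. In 3151T4 it kept more, with 5.46 and 5.59, 6.37 and 6.50, and 5.01 and 5.72, against 7.47 and 7.13, or 55.0% of control with Mycl1. Plek, a protein kinase C substrate, read 2.60 to 2.90 in vector cells of 3583T3 and 2.96 to 3.94 in those of 3151T4, against 5.32 and 6.73 and against 4.62 and 4.32 in control cells. Srgn, the core protein of granule proteoglycan, read 2.36 to 3.57 on the 12 vector arrays, against 7.84 and 8.45 and against 6.37 and 6.20.

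Among the secreted proteins and effector enzymes, the lines stood in different orders. F13a1, the A subunit of clotting factor XIII, was at the floor on all 8 arrays of 3583T3, with 2.00 to 2.77 in vector cells and 2.33 on each control array. In 3151T4 it read 5.93 and 6.12 with Nfib, 9.65 and 9.27 with Mycl1 and 5.04 and 4.67 with both, against 10.86 and 11.37 in control cells. Vector cells were thus below control cells in 3151T4 alone, at 2.93% with Nfib, 31.8% with Mycl1 and 1.30% with both of the control signal. Alox5ap, which presents arachidonic acid to 5-lipoxygenase, read 2.38 to 2.72 in vector cells of 3583T3, against 6.85 and 8.08 in control cells. In 3151T4 Alox5ap read 4.97 and 5.42 with Nfib, 3.43 and 3.29 with Mycl1 and 2.99 and 3.45 with both, against 5.61 and 5.55 in control cells, so Nfib cells kept 76.4% of it.

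Ccl9 and Ccl6 are neighbouring genes for related chemokines of mouse myeloid cells, and they differed. Ccl9 read 6.79 and 6.44 in Nfib, 6.11 and 5.72 in Mycl1 and 6.50 and 6.82 in Nfib+Mycl1 cells of 3583T3, against 8.38 and 8.81 in control cells. In 3151T4 it read 8.34 and 8.17, 8.40 and 8.69, and 6.16 and 7.02 with the same vectors, against 10.09 and 10.51. Ccl9 never came near the floor. Ccl6 read 3.32 to 3.90 in vector cells of 3583T3, against 9.11 and 10.37 in control cells, and 2.53 to 3.60 in vector cells of 3151T4, against 4.06 and 4.14. Arg1, the arginase of alternatively activated macrophages, read 2.81 to 3.62 on the vector arrays, against 8.81 and 9.66 in 3583T3 and 5.38 and 4.78 in 3151T4 control cells. Mmp12, the macrophage elastase, read 1.84 to 2.74, against 7.53 and 8.45 and against 5.14 and 5.12. Cybb, the catalytic subunit of the phagocyte oxidase, reached only 3.16 and 3.24 in 3583T3 and 2.55 and 2.34 in 3151T4 control cells, with 1.81 to 2.16 in vector cells.

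**Figure D2:**
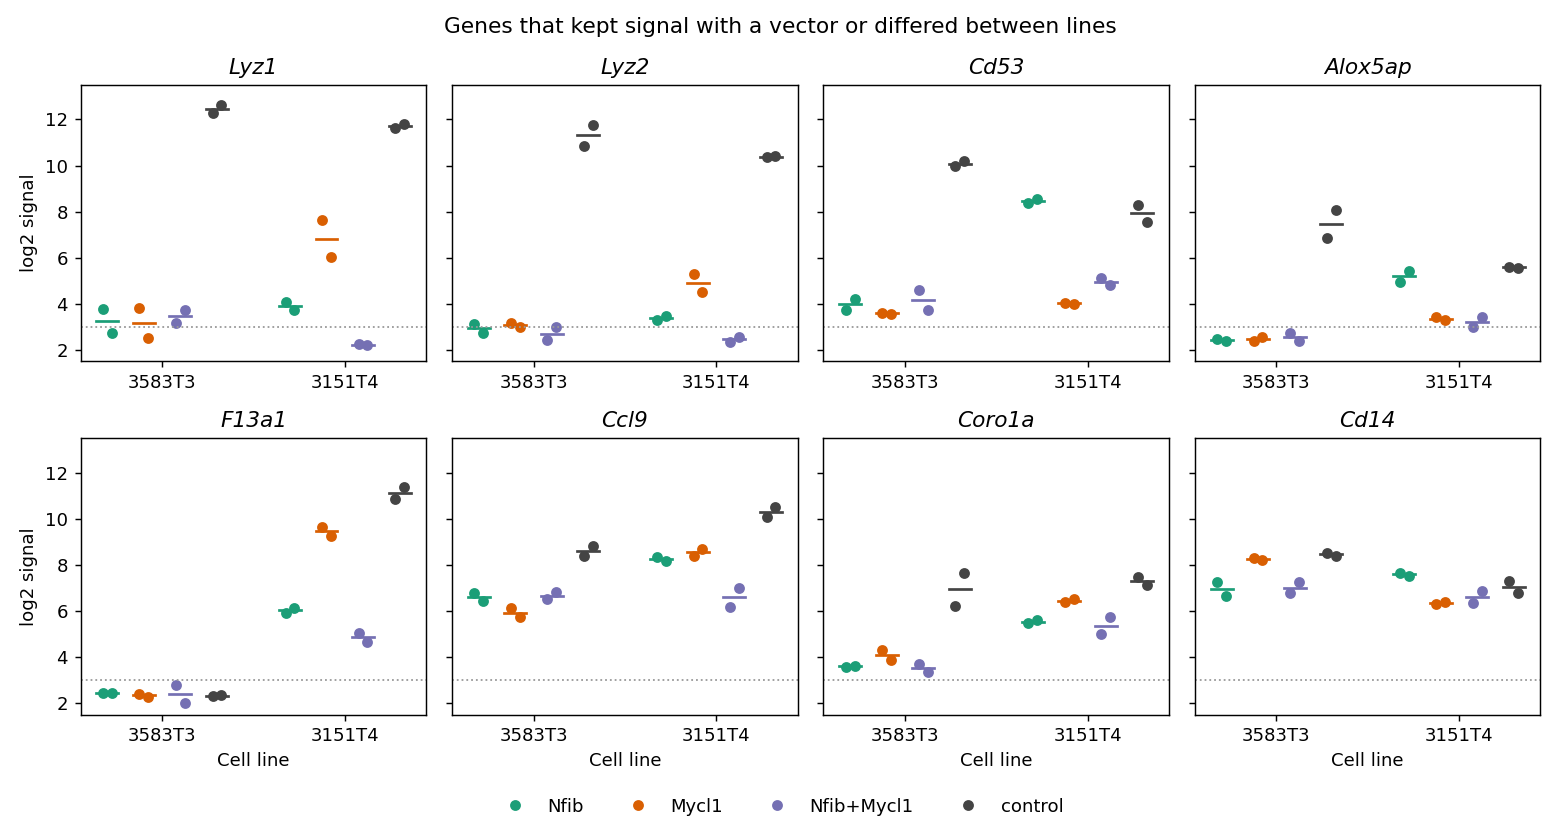
log2 signal of 8 genes on every array (points), with the mean of each pair as a bar, by line and vector; the dotted line is the floor at log2 3. In 3151T4, Nfib cells keep Cd53 and Alox5ap and Mycl1 cells keep part of Lyz1, Lyz2 and F13a1, while F13a1 is at the floor on every 3583T3 array.

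The members at the floor and those still measurable were counted for each vector. Under log2 3 on all 4 arrays of a vector were 23 members with Nfib (23.1% of all genes), 20 with Mycl1 (23.8%) and 19 with both (21.2%), while 17 were under it on all 12 vector arrays (19.3%). Itgam alone was under it on all 4 control arrays (23.1%). Over log2 4 on both arrays of 3583T3 were 3 members with Nfib (Lcp1, Ccl9 and Cd14), 4 with Mycl1 (these and Cd68) and 4 with both (the same 4), against 33 in control cells. In 3151T4 there were 7 with Nfib (Cd53, Ccl9, Csf1r, Cd14, Coro1a, Alox5ap and F13a1), 7 with Mycl1 (Lyz1, Lyz2, Lcp1, Ccl9, Cd14, Coro1a and F13a1) and 5 with both (Cd53, Ccl9, Cd14, Coro1a and F13a1), against 28 in control cells. With a floor at log2 2.5 the counts under it were 15 with Nfib and 9 with Mycl1, and with a floor at log2 4 the count with both was 32. With the 2 doubted arrays left out, 23 were under log2 3 with Nfib (23.9% of all genes) and 20 with both (22.0%).

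The lines were then compared in untransfected cells, a contrast that did not choose the members. Most of these genes were higher in 3583T3 than in 3151T4 control cells: both 3583T3 control arrays lay above both 3151T4 control arrays for 35 of the 39 members (34.3% of all genes) and below them for 2 (32.8%). The median member was 1.74 higher in 3583T3 on the log2 scale, beside 0.02 for all genes. In limma's fit over all 16 arrays, with Benjamini-Hochberg adjustment over 8774 genes, 29 of the 34 tested members were higher in 3583T3 control cells (18.9% of all genes were) and 2 were lower (21.2%). Ccl6 differed most among the higher ones, by 5.64 (SE 0.32, adjusted p = 9.1e-09), a 50.0-fold difference. Arg1 followed with 4.15 (SE 0.27, adjusted p = 4.0e-08), Clec4d with 3.80 (SE 0.34, adjusted p = 1.0e-06), Itgb2 with 3.31 (SE 0.30, adjusted p = 1.0e-06) and Mpeg1 with 3.02 (SE 0.20, adjusted p = 5.0e-08). Complement C1qb was 1.86 higher (SE 0.23, adjusted p = 1.7e-05), Csf1r 1.82 (SE 0.30, adjusted p = 2.6e-04) and Tyrobp 2.23 (SE 0.28, adjusted p = 2.5e-05).

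A pair of members went the other way. F13a1 was lower in 3583T3 control cells, with a log2 difference of -8.78 (SE 0.27, adjusted p = 1.7e-11) and its 3583T3 arrays at the floor. Its neighbour Ly86 read 5.11 and 5.85 in 3583T3 control cells, against 3.40 and 2.92 in 3151T4 control cells, and entered the tests through the 3583T3 control arrays alone. Ccl9 was lower in 3583T3 control cells, with a difference of -1.71 (SE 0.29, adjusted p = 3.1e-04), whereas its neighbour Ccl6 was the most raised. No difference was called for Lyz1 (0.72, SE 0.49, adjusted p = 0.259), Pld4 (0.57, SE 0.22, adjusted p = 0.0502) or Coro1a (-0.36, SE 0.37, adjusted p = 0.466).

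The size of the line difference moved with the second 3583T3 control array. That array lay above the first for 38 of the 39 members (50.6% of all genes), by a median of 0.85, while all genes had a median of 0.00. In 3151T4, replicate 4 lay above replicate 3 for 13 members (46.6%), with a median of -0.08. Without 3583T3 control replicate 2 the median line difference over the 39 members was 1.15, with 25 called higher and 3 lower. Without 3583T3 control replicate 1 it was 2.25, with 30 called higher and 2 lower. The filter matters too, since 5 members (C1qc, Ptprc, Fcgr2b, Ly86 and Cd48) passed it only through the 3583T3 control arrays, and of the other 29, 24 were higher and 2 lower. With no filter, 33 of the 39 were higher and 2 lower, when 30.1% of 12393 genes were called either way. Leaving out the 2 doubted arrays gave 30 higher and 2 lower, when 44.5% of all genes were called either way.

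**Figure D3:**
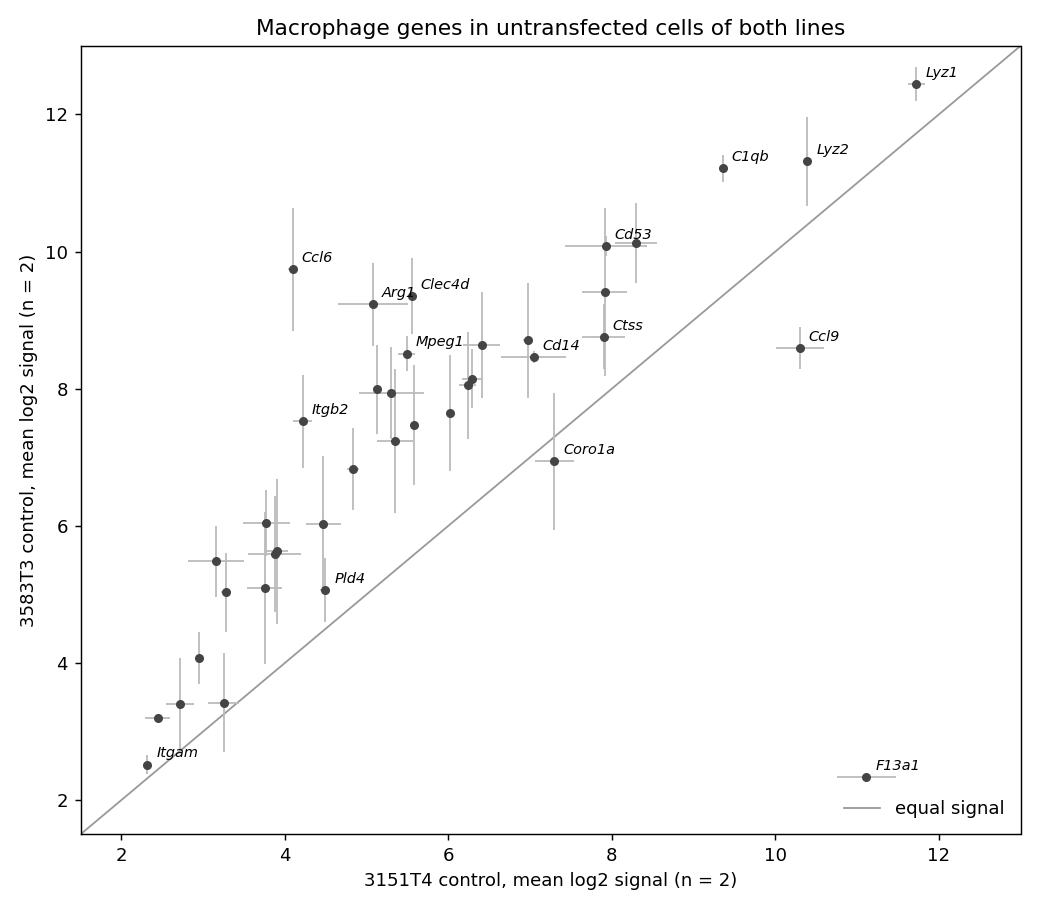
Mean log2 signal of the 39 genes in untransfected 3583T3 cells (vertical axis) against untransfected 3151T4 cells (horizontal axis), n = 2 arrays each, with SD bars; the line marks equal signal. Most genes lie above the line, Ccl6 and Arg1 far above it, Coro1a near it and Ccl9 and F13a1 below it.

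In vector-carrying cells fewer of these genes were called between the lines. Averaged over the 3 vectors, 3 members were higher in 3583T3 (25.5% of all genes were) and 10 lower (29.8%), so the lower share was near that of all genes. The largest differences were F13a1 at -4.39 (SE 0.16, adjusted p = 2.0e-11), Coro1a at -2.03 (SE 0.21, adjusted p = 2.0e-06), Cd53 at -1.90 (SE 0.17, adjusted p = 4.0e-07), Alox5ap at -1.44 (SE 0.19, adjusted p = 1.7e-05) and Ccl9 at -1.40 (SE 0.17, adjusted p = 6.3e-06). Lyz1 (-1.03), Lyz2 (-0.67), Csf1r (-0.59) and Plek (-0.57) were also lower in 3583T3. Ctss was called too, but its vector groups averaged under the floor in both lines. The higher ones were Ccl6 (0.64), Cd14 (0.57) and Cd68 (0.47). Cd53 and Alox5ap were thus higher in 3583T3 without a vector, and lower in it in the average over the vectors. Csf1r averaged 2.97 in 3583T3 and 2.94 in 3151T4 Mycl1 cells, so its difference did not extend to that vector. In Nfib+Mycl1 cells, Lyz1 averaged 3.45 in 3583T3 and 2.23 in 3151T4, Lyz2 2.71 and 2.46, and Ccl9 6.66 and 6.59. The lower averages of Lyz1, Lyz2 and Ccl9 thus did not extend to cells with both vectors. Cd14 averaged 6.96 in 3583T3 and 7.59 in 3151T4 Nfib cells, against its higher average, and Cd68 was about level between the lines with Nfib. With the 2 doubted arrays removed, 2 were higher and 10 lower, when 53.9% of all genes were called either way.

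The vectors were compared with each other, again outside the contrasts that chose the members. With a single vector effect over both lines no member was called between Nfib+Mycl1 and Mycl1 (3.77% of all genes were), Nfib+Mycl1 and Nfib (16.9%) or Nfib and Mycl1 (21.8%) by limma. At an unadjusted p under 0.05 the counts were 4, 0 and 2. Of the 34 tested members, 23 exceeded log2 4 on no vector array, so a call between vectors was hardly possible for them. Vector differences that vary by line also add to the spread in this fit. The lack of calls is therefore no result about the vectors. When each line had its own vector means and the differences were averaged, 5, 4 and 7 members were called (12.2%, 28.3% and 31.3% of all genes were), with F13a1 and Cd53 among them in all 3 comparisons. When the 2 doubted arrays were left out, Ccl9 was lower in Nfib+Mycl1 than in Nfib cells, with a difference of -1.21 (27.6% of all genes were called). Cd53 was then higher in Nfib than in Mycl1 cells, with a difference of 3.01 (29.6% of all genes).

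Within 3151T4 the vectors differed in a few named genes. Nfib cells were above Mycl1 cells in 4 of the 34 tested members (18.1% of all genes were) and below them in 6 (15.8%). Neither count stood clear of the share of all genes, so only single genes are described. Cd53 was 4.45 higher with Nfib (SE 0.30, adjusted p = 1.0e-07), a 21.9-fold difference, and Alox5ap 1.83 higher (SE 0.32, adjusted p = 6.5e-04). Cd14 (1.26) and Csf1r (1.08) were higher too. F13a1 was lower with Nfib than with Mycl1, at -3.44 (SE 0.27, adjusted p = 4.6e-07), and so was Lyz1, at -2.93 (SE 0.49, adjusted p = 4.2e-04). Lyz2 (-1.52) and Lcp1 (-1.10) were lower as well. The other called genes, C1qb and Tyrobp, read under the floor with Nfib and at or near it with Mycl1, so no size is given.

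Cells of 3151T4 with both vectors were below cells with 1 vector in each member called between them. Against Mycl1 alone in 3151T4, 4 members were lower and 0 higher (1.89% and 1.66% of all genes): F13a1 at -4.61 (SE 0.27, adjusted p = 1.5e-07), Lyz1 at -4.60 (SE 0.49, adjusted p = 6.3e-05), Lyz2 at -2.43 (SE 0.32, adjusted p = 4.3e-04) and Ccl9 at -1.96 (SE 0.29, adjusted p = 8.3e-04). Against Nfib alone, 8 of the 34 tested members were lower and 0 higher (16.9% and 12.8% of all genes), so the lower count was not far from the share of all genes. Cd53 differed most, at -3.51 (SE 0.30, adjusted p = 2.9e-06), then Alox5ap at -1.98, Lyz1 at -1.68, Ccl9 at -1.67, F13a1 at -1.17, Csf1r at -0.96 and Lyz2 at -0.91, and Cd14 was lower as well (1.99-fold). Leaving out 3151T4 Nfib replicate 3, Nfib replicate 4 or Nfib+Mycl1 replicate 3 gave counts of 4, 3 and 4. Leaving out 3151T4 Mycl1 replicate 3, whose Lyz1 signal was the higher of its pair, gave 6 called members between Nfib and Mycl1. The 2 doubted arrays are of the other line but share in the estimate of spread. With them left out, 5 members were lower and 1 higher in Nfib+Mycl1 than in Mycl1 cells of 3151T4. In that setting 7.36% of all genes were called either way.

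Within 3583T3 almost all members were too low to compare between vectors. Cd14 was lower in Nfib+Mycl1 than in Mycl1 cells, at -1.25 (SE 0.27, adjusted p = 0.011), as the only member called (7.64% of all genes were). Between Nfib and Mycl1 it was again the only one, at -1.30 (SE 0.27, adjusted p = 0.0078, with 7.26% of all genes called). The first of these calls was lost without Mycl1 replicate 2 or Nfib+Mycl1 replicate 1, and the second without Mycl1 replicate 1 or the array labelled Nfib replicate 2. No member was called between Nfib+Mycl1 and Nfib, where 0.00% of all genes were called and 0 members had an unadjusted p under 0.05. Without the 2 doubted arrays 4.83% of all genes were called there and still no member, while Cd53 was also called between Nfib+Mycl1 and Mycl1, at 1.00.

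The response to each vector was also compared between lines, as the change in 3583T3 minus that in 3151T4. These 3 comparisons share the control arrays, and for a gene that ends at the floor in both lines they repeat the control difference. With Nfib, the change of 23 members was more negative in 3583T3 (4.09% of all genes) and that of 1 was more negative in 3151T4 (2.72%). With Mycl1 the counts were 22 (0.878%) and 1 (1.23%), and with both vectors 21 (1.65%) and 2 (4.30%). Among the 29 members that did not pass the filter through the 3583T3 control arrays alone, 19, 19 and 18 were more negative in 3583T3. Cd53 had the largest difference with Nfib, -6.64 (SE 0.42, adjusted p = 2.7e-07), and Alox5ap had -4.64 (SE 0.46, adjusted p = 2.2e-05). Ccl6 gave -4.78 with Nfib, -5.34 with Mycl1 and -4.90 with both. F13a1 went the other way each time, at 5.21, 1.67 and 6.31. With the 2 doubted arrays left out, the counts were 22 and 1 with Nfib, 25 and 1 with Mycl1 and 22 and 2 with both. Of all genes, 7.59%, 4.26% and 8.71% were then called either way. The Mycl1 count was 14 or 15 without any 1 of the 3583T3 Mycl1 arrays, 3583T3 control replicate 2, the 3151T4 Mycl1 arrays or the 3151T4 control arrays.

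Other macrophage genes were mixed, once those that passed the filter through control arrays alone were set apart. Of 56 further macrophage genes, 49 were on the array and 21 passed the filter, 11 of them through control arrays alone, which favours a lower call. Against control over both lines, 13 were lower and 2 higher with Nfib, 15 and 0 with Mycl1, and 14 and 2 with both, in limma's fit over all genes (4.95%, 4.68% and 14.7% of all genes were lower, and 5.29%, 6.63% and 16.3% higher). Of the other 10 genes, 2 were lower and 2 higher with Nfib, 5 and 0 with Mycl1, and 3 and 2 with both. The summed signal of the 49 was log2 9.48 to 9.91 on the vector arrays of 3583T3, against 10.78 to 10.99 in control cells. In 3151T4 it was 11.05 to 11.13 with Nfib, 10.05 to 10.09 with Mycl1 and 10.55 to 10.57 with both, against 10.41 to 10.45 in control cells. Nfib and Nfib+Mycl1 cells of 3151T4 thus lay above control cells in this sum, whose brightest gene in 3151T4 Nfib cells was Tlr2, at a mean of 10.10, against 8.42 in control cells. Ms4a6d, a membrane protein of the MS4A family, was lower, at -3.57 with Nfib, -3.37 with Mycl1 and -3.71 with both. Ptpn6 (SHP-1), a phosphatase of blood cells, was lower, at -1.57, -1.21 and -1.68, and the IgG receptor Fcgr1 at -1.62, -1.77 and -1.71. Ms4a6d, Ptpn6 and Fcgr1 averaged at most 3.17 in any vector group, so their sizes describe genes bright in control cells and are no added support. Tlr2, a receptor for bacterial lipopeptides also made by other cells, was higher with Nfib (1.21, SE 0.21, adjusted p = 0.0017) and lower with Mycl1 (-1.05). Without the 2 doubted arrays 10, 16 and 13 were lower. Between the lines' control cells, 15 were higher in 3583T3 (18.9% of all genes were) and 3 lower (21.2%). Several of the 21 averaged over log2 4 in 3583T3 control cells alone, which favours a higher call. Among these were Clec4n (6.80, against 3.71 in 3151T4 control cells) and Clec7a (5.53, against 2.88), so this count is no added support. Of the class II presentation genes, Cd74, H2-Aa, H2-Ab1 and H2-Eb1 were lower with every vector in this fit over both lines, for instance H2-Eb1 at -3.46 with Nfib, -3.43 with Mycl1 and -3.53 with both, while H2-DMa was not called with any. H2-Aa and H2-Eb1 averaged at most 2.64 in any vector group, so the filter favoured a lower call for them too. Cd74 was near its control level in 3151T4 Nfib cells, as given above. The class II genes summed there to log2 8.82 to 8.86, against 9.15 to 9.31 in control cells. Without the 2 doubted arrays 3 of the 5 tested class II genes were lower with Nfib and 4 with each of the others.

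Genes of lysosomes that other cells also use kept a high signal, yet with both vectors a larger share of them than of all genes was lower. Of 16 tested, 1 was lower with Nfib, 3 with Mycl1 and 8 with both (4.95%, 4.68% and 14.7% of all genes were). Higher were 0, 0 and 1 (5.29%, 6.63% and 16.3%). Their median differences from control were -0.04, -0.40 and -0.38, beside 0.03 for all genes each time. Without the 2 doubted arrays 1, 8 and 10 were lower. The 17 on the array had a median level between 10.86 and 11.70 in all groups.

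Markers of other blood cells were mostly at the floor in every group. All 6 mast cell genes were under log2 3 in control cells of both lines, and their summed signal was log2 4.73 to 5.20 on all arrays. Of the 9 neutrophil genes, 8 were under log2 3 in control cells of each line. S100a8 averaged 2.96, 2.94 and 2.99 in Nfib, Mycl1 and Nfib+Mycl1 cells of 3583T3, against 4.63 in control cells, and the neutrophil sum was log2 5.38 to 5.67 on vector arrays of both lines, against 5.90 and 6.11 in 3583T3 and 5.55 and 5.58 in 3151T4 control cells. The T cell receptor chains Cd3e, Cd3d and Cd3g averaged under the floor in all control cells, whereas Cd2 averaged 3.03, 3.05 and 3.14 in Nfib, Mycl1 and Nfib+Mycl1 cells of 3583T3, against 5.15 in control cells. The 11 T and NK cell genes summed to log2 7.93 to 8.64 on vector arrays, against 8.15 to 8.42 on control arrays. Of these 11, 2 were over log2 4 on both arrays in each vector group and in 3151T4 control cells, and 3 in 3583T3 control cells. The summed signal of the 7 B cell genes was log2 5.29 to 5.71 on all arrays. The platelet chemokine Pf4, which macrophages can also make, averaged 2.40, 2.41 and 2.52 with the vectors in 3583T3, against 5.58 in control cells, and 5.62, 2.47 and 2.73 in 3151T4, against 3.38. Ppbp likewise was 5.34 in 3151T4 Nfib cells, against 3.12 in control cells.

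Endothelial and fibroblast genes also moved with the groups. Esam read 9.52 and 5.26 in Nfib, 10.41 and 10.43 in Mycl1 and 5.54 and 9.17 in Nfib+Mycl1 cells of 3583T3, against 11.31 and 11.12 in control cells, and averaged 2.36 to 2.53 in 3151T4, while Pecam1 and Cdh5 were under the floor in every group. The second array of the Nfib and of the Nfib+Mycl1 pair, 5.26 and 9.17, are the doubted ones. The summed endothelial signal of 3583T3 was log2 6.44 to 9.61 with Nfib, 10.48 to 10.56 with Mycl1 and 6.63 to 9.29 with both, against 11.35 to 11.37 in control cells. Fibroblast genes summed to log2 13.91 to 14.19, 12.91 to 13.38 and 14.02 to 14.17 in the same cells, against 12.65 to 13.05, and to 15.16 to 15.27, 13.83 to 13.97 and 14.19 to 14.45 in 3151T4, against 14.56 to 14.61. Their part in the result on the macrophage genes was not tested. The summed signal of the 39 members was 8.79 to 9.41 on the 6 vector arrays of 3583T3 and 8.97 to 10.82 on those of 3151T4, against 13.99 and 14.65 and against 13.38 and 13.52 in control cells.

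**Figure D4:**
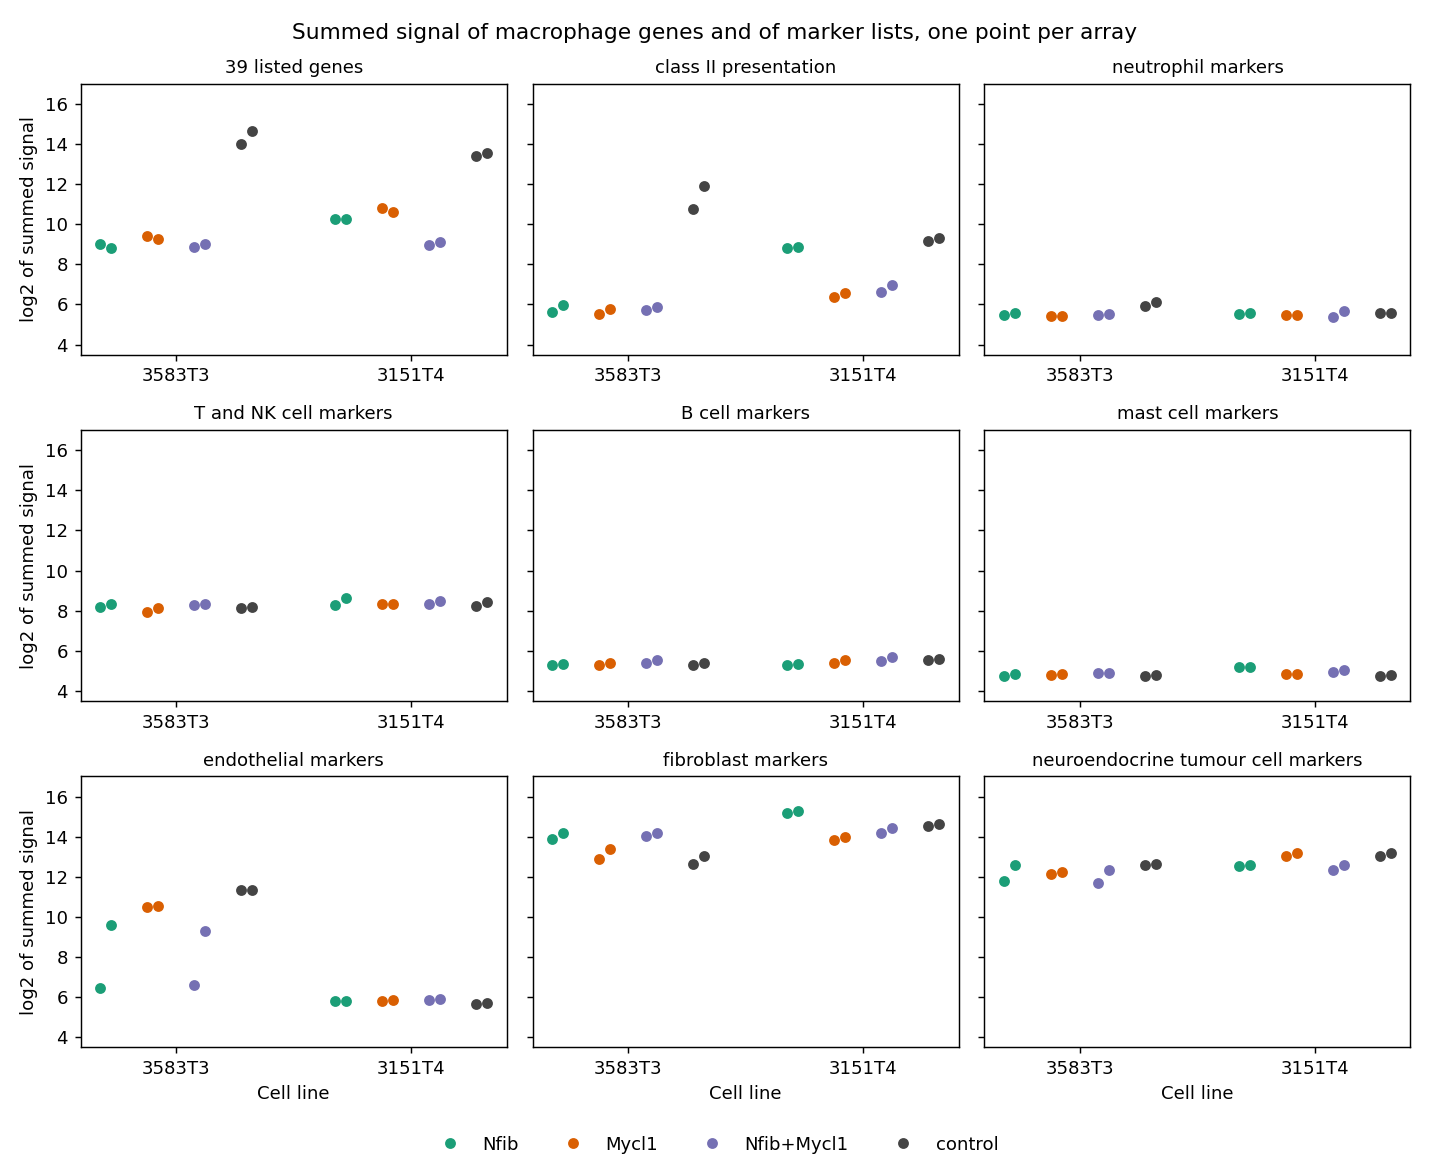
log2 of the summed signal of the 39 macrophage genes and of 8 marker lists, 1 point per array, by line and vector. The macrophage and class II sums are highest in control cells of each line, the neutrophil, T and NK, B and mast cell sums stay nearly level, and the endothelial sum is high in 3583T3 alone.

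Genes outside the list that most resembled it were chosen by the Pearson correlation, over the 16 arrays, with the mean of the members' centred values. The 10 highest were Ms4a6d (0.984), Cd300c2 (0.983), Clec4e (0.980), H2-Aa (0.978), Fcgr1 (0.977), Ptpn6 (0.971), H2-Eb1 (0.968), Rac2 (0.964), Slc15a3 (0.957) and Pilra (0.954). Each had a control mean above its vector means in both lines, as Ms4a6d shows with 2.23, 2.71 and 2.09 in 3583T3, against 6.92, and 2.46, 2.35 and 2.31 in 3151T4, against 4.89. The arrays share the split into control and vector cells, so such a correlation describes that split. Among the members themselves, each against the mean of the others, the lowest values were F13a1 (0.146), Cd14 (0.424), Ccl9 (0.686), Coro1a (0.760) and Cd53 (0.799), and Fcer1g had the highest (0.997).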

How the data were processed

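RNA from 16 mouse cell cultures was hybridised to 1 Affymetrix array each, and 1 table of 22690 probe sets was used. Per the submitters' processing notes the authors used GCRMA 2.20.0 under R 2.11.0, and the deposited values were taken as log2 signal from their range. Batch, scan date, detection calls and genome build are not given in the sources used here. Of the probe sets, 64 were controls, 20380 had 1 gene symbol, 691 had several and 1555 had none, by the platform annotation. Probe sets with 1 symbol gave 12393 genes, each read from the probe set with the highest mean. The 8774 genes above log2 4 on at least 2 arrays were tested with limma 3.58.1 in R 4.3.3 (lmFit, and eBayes with a trend on mean signal), with Benjamini-Hochberg adjustment over these genes at 0.05. A model with 8 means of line and vector served the comparisons between lines and within a line, and a model of vector plus line those of vectors over both lines. For vector against control, a fit of this second kind served genes outside the list and was added after the data were seen. The members and all gene lists were chosen with earlier results of these data known. All 39 members are named, and other genes were named by rule: for each comparison at most 3 called genes of a list with the smallest p, the 10 genes most like the members, and markers at the floor or highest in their list. The values given for Cd74, H2-DMa, Tlr2, Csf1, Pf4, Ppbp, Cd2, S100a8 and Esam were picked after they had been seen. Group sums are log2 of summed linear signal. Replicate numbers did not pair the arrays: of 24 pairs of same-numbered arrays, 6 had deviations from the group means that correlated above 0.1 (range -0.74 to 0.31). Calls were tested on simulated data with known changes. Alternatives tried were the filter, a second normalisation, median centring, array weights, no trend, a replicate block, all probe sets, other floors, the doubted arrays and each array left out. Symbols were current in RefSeq for 39 of 39 members.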

Additional observations from a re-analysis of the deposited data

Results flagged for a closer look

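The change with each vector differed between the lines for most tested members, by a test of the difference itself (limma's fit of 8 means, the change in 3583T3 minus that in 3151T4). It did so for 24 members with Nfib (4.09% of all genes had a more negative change in 3583T3 and 2.72% a less negative one), 23 with Mycl1 (0.878% and 1.23%) and 23 with both vectors (1.65% and 4.30%). These counts include up to 5 members that passed the filter through the 3583T3 control arrays alone. Of the 34 tested members, 23 exceeded log2 4 on no vector array. For these the test mostly repeats the difference between the lines' control cells, so the counts are no separate result on the vectors. All 3 sets of differences use the same 4 control arrays. With Nfib the largest were Cd53 (-6.64) and Ccl6 (-4.78), and F13a1 (5.21) had the opposite sign. With Mycl1 they were Ccl6 (-5.34) and Arg1 (-4.69), with F13a1 (1.67) opposite. With both vectors they were Ccl6 (-4.90) and Arg1 (-4.32), with Ccl9 (1.78) and F13a1 (6.31) opposite. For Ccl6 and Arg1 the vector cells of both lines were near the floor, while control cells differed between the lines by 5.64 and 4.15. For Cd53 the vector cells themselves differed, with means of 3.98 in 3583T3 and 8.46 in 3151T4 Nfib cells.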

How the results depend on the processing

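Of 138 calls on single members in the tested comparisons, 38 were lost under at least 1 alternative and 0 changed sign. Leaving out each array in turn gave 27 to 32 members called between the lines' control cells, 11 to 15 between their vector cells, 0 to 1 for each of the 3 vector pairs over both lines, and 19 to 28, 14 to 27 and 17 to 29 for responses to Nfib, Mycl1 and both that differ between lines. Within 3583T3 and 3151T4 it gave 0 to 1 and 4 to 5 between Nfib+Mycl1 and Mycl1, 0 to 0 and 3 to 10 between Nfib+Mycl1 and Nfib, and 0 to 1 and 6 to 14 between Nfib and Mycl1. Median changes from control stayed within -3.27 to -2.93 with Nfib, -3.68 to -3.04 with Mycl1 and -3.78 to -3.26 with both (main values -3.10, -3.35 and -3.54). Members at the floor stayed at 23 to 23, 20 to 23 and 19 to 24. Further macrophage genes lower than control numbered 10 to 14, 9 to 16 and 11 to 16, with 9 without 3583T3 control replicate 1. For these genes no filter gave 29, 28 and 27, and a filter at log2 6 gave 4, 6 and 5, with fewer genes tested. The Mycl1 response count was 14 with the log2 6 filter and 15 with the replicate block, the only count of members that block moved by more than 1.5 times. For the vector pairs over both lines (Nfib+Mycl1 against Mycl1, Nfib+Mycl1 against Nfib, and Nfib against Mycl1), array weights gave 2, 4 and 6, and 8 means averaged over the lines gave 5, 4 and 7, where the main fit gave 0. Within 3583T3, array weights gave 0 between Nfib+Mycl1 and Mycl1. Without the 2 doubted arrays the counts were 1 between Nfib+Mycl1 and Nfib, 1 between Nfib and Mycl1 and 2 within 3583T3 between Nfib+Mycl1 and Mycl1. Of all genes, 27.6%, 29.6% and 8.68% were called there. A floor at log2 2.5 gave 15 members under it with Nfib and 9 with Mycl1, and one at log2 4 gave 32 with both. The single calls over both lines came without 3583T3 Nfib replicate 1 or 2, Mycl1 replicate 1 or 2, Nfib+Mycl1 replicate 2 or control replicate 2, or without 3151T4 Nfib+Mycl1 replicate 3 or control replicate 4. Apart from filter and floor, whose construction sets the count, the cause was not tested. With 2 arrays a group and no detection calls, differences near the floor are not detectable.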
